A study of Mus musculus with 6 samples.

Results

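The genes described here are 10 members of the fibroblast growth factor (FGF) system of the mouse. They comprise 5 ligand genes, Fgf11, Fgf13, Fgf2, Fgf7 and Fgf21, and 5 receptor genes, Fgfr1, Fgfr2, Fgfr3, Fgfr4 and Fgfrl1. They were chosen by name as a family, around Fgf11, with the difference between SD70 and DMSO already known, so the values of these genes in that contrast are given as a description. No p-value is printed for them, and a count of those past the thresholds is no test of them either. Of the 10 genes, 9 were among the 16081 genes listed, and Fgfr2 was not analysed here because its symbol is not among them. A filter on low counts kept 6 of the 9, namely Fgf11, Fgf7, Fgf21, Fgfr1, Fgfr3 and Fgfrl1, among 11552 genes tested.

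RNA sequencing was performed on the Lewis mouse lung carcinoma line, an established cell line grown in culture. Cells of 3 samples were kept with DMSO, the vehicle, for 24 hours, and cells of 3 samples with SD70, an inhibitor of the histone demethylase KDM4C, for 24 hours. No other agent or genetic change is given for either group, and the dose of SD70 for these libraries is not given in the sources used here. The labels number the samples 1 to 3 within each group and do not say that they came from separate cultures, so p-values measure the spread between these samples, which may be technical.

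FGFs are secreted proteins that bind receptor tyrosine kinases on the cell surface together with heparan sulphate, a sulphated sugar chain. Binding brings receptors together and starts a relay through the adaptor FRS2, RAS and a chain of kinases down to ERK, which ends in transcription of target genes, among them inhibitors of the same relay. The family has branches that work otherwise. The FGF homologous factors, to which Fgf11 and Fgf13 belong, are kept inside the cell and are best known for binding voltage-gated sodium channels. The endocrine FGFs, to which Fgf21 belongs, bind heparan sulphate weakly, circulate, and need a Klotho protein beside the receptor.

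Totals ranged from 15276744 to 17060424 counts per sample, and 14062 to 14105 genes had a value above 0. Over 9623 well-counted genes, the root mean square deviation of a library from its group mean was 0.0846 to 0.0988 on the log2 scale, so no library stood apart. Of the genes tested, 380 were called higher and 301 lower with SD70, where called means an adjusted p under 0.01 and a change of at least 2-fold in edgeR's quasi-likelihood test. The line was checked against cell type markers. Of 5 epithelial markers, Epcam, Cdh1 and Krt19 had at most 1 count in a sample, whereas Krt8 had 2382 to 4150 counts and Krt18 had 31 to 101. Both keratins were lower with SD70 in edgeR's test (log2 fold change -0.55, adjusted p = 3.28e-11 for Krt8, and -1.22, adjusted p = 2.97e-07 for Krt18). Of the immune markers, Ptprc had at most 2 counts in a sample and Csf1r at most 1, whereas Cd68 had 155 to 253 counts and was lower with SD70 (log2 fold change -0.48, adjusted p = 1.21e-04, edgeR). Lyz2 had 11 to 26 counts and Cd79a 3 to 19. Of the endothelial markers, Pecam1, Kdr and Tek had at most 4 counts in a sample and Cdh5 had 56 to 65. Summed FPKM of the immune list was 14.94 to 15.42 with DMSO and 10.37 to 12.29 with SD70. The alveolar type II marker Sftpc had at most 1 count. Summed FPKM of the epithelial list was 148.1 to 155.0 with DMSO and 94.49 to 106.4 with SD70, and that of the 4 fibroblast markers was 51.30 to 54.33 and 37.93 to 41.06, with Col1a1 at no more than 6 counts and Col1a2 at no more than 11. The fibroblast markers Pdgfra, at 767 to 1848 counts, and Dcn, at 807 to 1066, were lower with SD70 (adjusted p = 9.33e-17 and 0.00719, edgeR). Pdgfra had means of 1753 normalized counts with DMSO and 876.8 with SD70, and Dcn had 1017 and 893.1. The part of these differences in the results below was not tested.

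The stretches of genome just upstream of the start sites of Fgf11, Fgf21 and Fgfrl1 are shown because these are the ligand that was lower with SD70, the ligand that was higher, and the most abundant of the receptor genes that were lower. Each is the 250 bases before a RefSeq start site in GRCm38.p6, written 5′ to 3′ on the strand of the gene. Capitals mark matches to 2 motifs searched on both strands, TGATGNAA, a form of the element bound by ATF4 with C/EBP proteins, and ACGTG, the core of the hypoxia response element.

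Fgf11, chr11:69802281-69802530, minus strand: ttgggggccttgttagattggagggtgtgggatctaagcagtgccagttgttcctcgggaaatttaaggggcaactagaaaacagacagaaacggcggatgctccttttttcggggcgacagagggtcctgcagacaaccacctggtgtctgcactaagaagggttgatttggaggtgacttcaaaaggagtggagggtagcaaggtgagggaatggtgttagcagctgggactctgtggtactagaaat

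Fgf21, chr7:45615491-45615740, minus strand: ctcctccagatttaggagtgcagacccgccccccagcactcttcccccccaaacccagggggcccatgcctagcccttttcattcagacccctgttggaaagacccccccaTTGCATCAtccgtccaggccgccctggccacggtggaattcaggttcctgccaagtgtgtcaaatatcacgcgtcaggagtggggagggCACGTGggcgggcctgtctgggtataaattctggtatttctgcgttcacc

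Fgfrl1, chr5:108693979-108694228, plus strand: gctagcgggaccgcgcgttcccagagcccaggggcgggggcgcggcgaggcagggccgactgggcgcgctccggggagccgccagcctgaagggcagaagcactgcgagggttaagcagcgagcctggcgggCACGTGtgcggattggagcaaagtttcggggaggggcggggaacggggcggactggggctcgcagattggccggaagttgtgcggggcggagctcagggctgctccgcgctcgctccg

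The Fgf11 stretch holds 0 matches, and in base composition it has 51.2% G or C and 5 CpG pairs. Its RefSeq start site lies 423 bases upstream of the outermost start in GENCODE M21, so the annotations differ on where transcription of Fgf11 begins. The RefSeq span of the gene reaches still further upstream, to base 69802944, so the stretch shown for Fgf11 lies inside that span. The Fgf21 stretch holds 1 match to TGATGNAA, on the opposite strand as TTGCATCA, at positions -139 to -132, where 1 is the first base of the transcript. It also holds CACGTG at -50 to -45, where ACGTG matches on both strands in overlapping positions. RefSeq and GENCODE give the same start site for Fgf21. The Fgfrl1 stretch has 73.6% G or C with 30 CpG pairs and holds CACGTG at -118 to -113 from its RefSeq start. For Fgfrl1, the outermost GENCODE start lies upstream of the stretch shown, at base 108692382 beside a RefSeq start at base 108694229. Over 32851 RefSeq windows of 300 bases, running from 250 before to 50 after a start, TGATGNAA was found in 3.97% and ACGTG in 19.6%. These matches describe letters in the sequence, and binding was not measured here.

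Among the ligands, Fgf11 was lower and Fgf21 higher with SD70, each about 4-fold, while Fgf7 differed by less than its error and Fgf2 and Fgf13 were at the limit of detection. Among the receptors, Fgfr1 was the main transcript in both groups and was 1.15-fold higher with SD70, whereas Fgfr3 and Fgfrl1 were 1.60-fold and 1.62-fold lower. Of the 6 genes tested, Fgf11 and Fgf21 met both call thresholds, against 5.90% of all genes tested (2.61% lower and 3.29% higher). In all 6 genes the 3 SD70 samples lay entirely above or entirely below the 3 DMSO samples, which was so for 64.4% of all genes tested. The median log2 fold change of the 6 was -0.24, beside -0.00 over all genes tested. Because the genes were chosen with this contrast known, nothing is read from these counts.

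**Figure D1:**
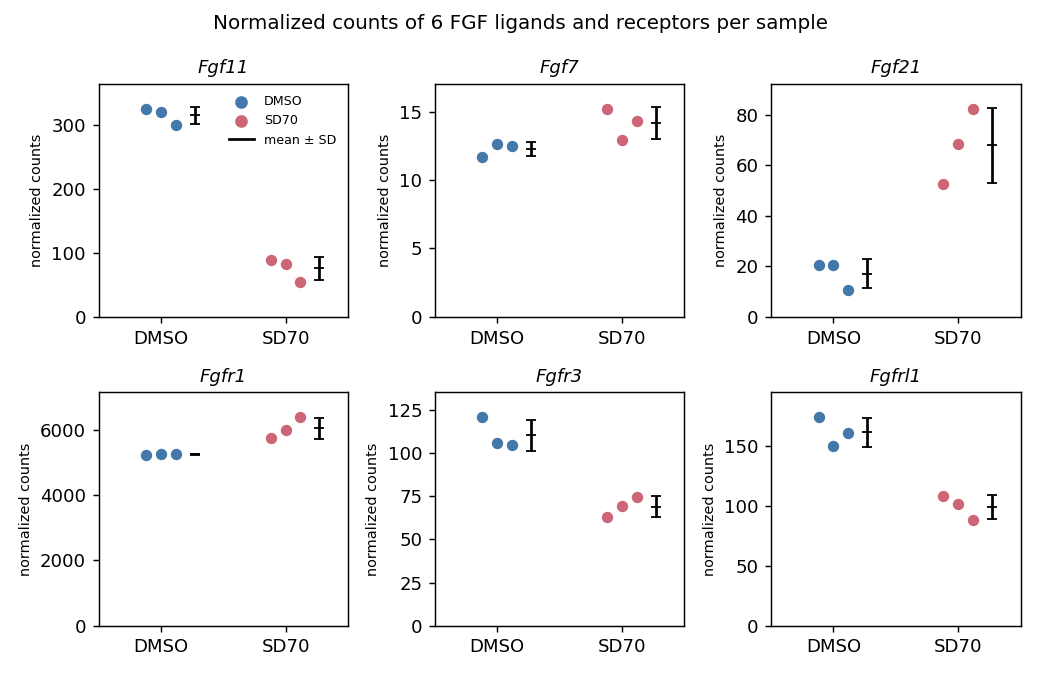
Normalized counts (vertical axes, each starting at 0) of the 6 FGF ligand and receptor genes tested, with 1 point per sample, DMSO in blue and SD70 in red, and bars for the mean ± SD (n = 3). Fgf11 lies between 301.1 and 326.4 with DMSO and between 55.01 and 89.30 with SD70, and Fgf21 lies between 10.55 and 20.46 with DMSO and between 52.77 and 82.51 with SD70.

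Fgf11 (gene ID 14166) lies on the minus strand at chr11:69796068-69802944 in GRCm38.p6 and overlaps no other gene in RefSeq. The DMSO samples held 335, 330 and 314 counts of it and the SD70 samples 88, 84 and 50. Scaled to a common library size, these are 326.4, 320.5 and 301.1 normalized counts under DMSO against 89.30, 83.42 and 55.01 under SD70. Every SD70 sample lay far below every DMSO sample, and SD70 replicate 3 was the lowest of all. The means were 316.0 ± 13.24 and 75.91 ± 18.34 normalized counts (SD of 3 samples each). In edgeR's fit the level was 4.13-fold lower with SD70. The log2 fold change was -2.05 (SE 0.123, 95% interval -2.30 to -1.80), the 14th lowest among the 11552 genes tested. Without SD70 replicate 3 it was -1.88.

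Levels of different genes were compared in FPKM, fragments scaled by transcript length and by library size, since counts grow with transcript length. Fgf11 stood at 5.58, 5.76 and 5.43 FPKM under DMSO, against 1.64, 1.55 and 0.98 under SD70. With DMSO its mean of 5.590 FPKM was close to the middle of all listed genes, at the 48.3 percentile, and with SD70 its mean of 1.390 was at the 36.8 percentile. The listed genes include those that failed the filter on low counts, so these are not places among expressed genes. Fgf11 remained detected in every SD70 sample.

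Fgf13, the other FGF homologous factor among these genes, is X-linked (chrX:59062139-59585572, minus strand). It had 1 count in DMSO replicate 2 and 1 in SD70 replicate 3 and 0 in the other samples. A count of 0 allows up to 3 counts in a library, so no difference in Fgf13 was detectable at this depth.

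Fgf21 (gene ID 56636, chr7:45613890-45615490, minus strand), the endocrine FGF, differed in the opposite direction to Fgf11. It had 21, 21 and 11 counts under DMSO against 52, 69 and 75 under SD70. In normalized counts these are 20.46, 20.40 and 10.55 against 52.77, 68.52 and 82.51. The groups were separated by a wide gap, with DMSO replicate 3 the lowest and SD70 replicate 3 the highest sample. The means were 17.14 ± 5.705 and 67.93 ± 14.88 normalized counts (SD of 3 samples each). In edgeR's fit the level was 3.93-fold higher with SD70, a log2 fold change of 1.98 (SE 0.239, 95% interval 1.49 to 2.46). It was the 73rd highest log2 fold change among the genes tested, on far fewer counts than Fgf11. Without DMSO replicate 3 it was 1.71. Klb, which encodes the beta-Klotho that Fgf21 signalling requires, had at most 2 counts in a sample.

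Fgf7 (gene ID 14178, chr2:126034658-126091185, plus strand), also called keratinocyte growth factor, is a ligand that connective tissue cells secrete towards epithelium. Only 12, 13 and 13 counts fell on it under DMSO, against 15, 13 and 13 under SD70. The normalized means of 12.26 ± 0.4988 and 14.14 ± 1.164 (SD of 3 samples each) gave a log2 fold change of 0.20, with a 95% interval from -0.46 to 0.87 that spans 0. Although the SD70 samples were all slightly above the DMSO samples, at so few counts the difference was within counting error. The span of Fgf7 overlaps Fam227b, which had 1 count in 1 of the 6 samples.

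Fgf2 (gene ID 14173, chr3:37348477-37410106, plus strand), the basic FGF, had 1 count in DMSO replicate 2 and 0 in the 5 other samples. The count and the FPKM of that sample together imply an effective length of 542 bases, whereas coding transcripts of Fgf2 in GENCODE M21 run from 462 to 5973 bases. Whether reads of the longer transcripts were counted was not tested. Fgf2 overlaps Nudt6, a gene on the opposite strand with 29 to 43 counts in the DMSO samples and 34 to 51 in the SD70 samples. Strand-specific counting is not stated, so reads of Fgf2 and Nudt6 from the shared part cannot be told apart.

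In the DMSO samples Fgf11 made up 77.03 ± 5.21% of the summed FPKM of the 5 ligands (SD of 3 samples), and Fgf21 made up 18.24 ± 5.10%. In the SD70 samples the order was turned round, with Fgf11 at 20.40 ± 7.29% and Fgf21 at 74.56 ± 7.75% (SD of 3 samples each). The ratio of Fgf11 to Fgf21 FPKM was 3.423, 3.578 and 6.704 under DMSO, against 0.4010, 0.2941 and 0.1517 under SD70. The summed FPKM itself was 7.500, 7.820 and 6.540 under DMSO, against 6.090, 7.130 and 7.820 under SD70, so the groups overlapped in the sum and were separated in its make-up. Since Fgf11 is kept in the cell and Fgf21 is secreted, this sum adds transcripts of proteins with unlike roles.

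**Figure D2:**
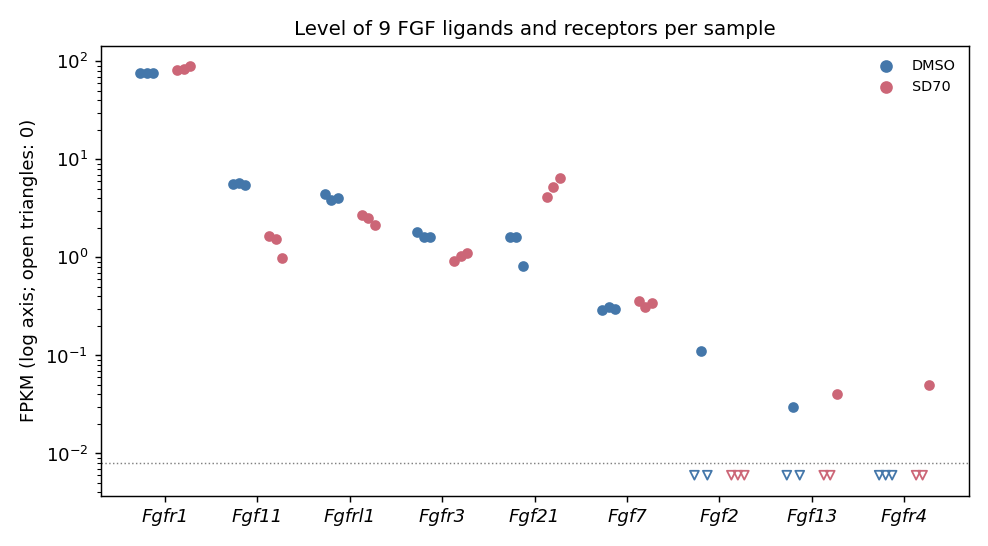
FPKM (vertical axis, log scale) of the 9 listed FGF ligands and receptors in each of the 6 samples, in order of the DMSO mean, with DMSO in blue, SD70 in red and values of 0 as open triangles under the dotted line. Fgfr1 lies above 75 FPKM in all samples, Fgf11 lies above Fgf21 with DMSO and below it with SD70, and Fgf2, Fgf13 and Fgfr4 are at 0 in 5 of 6, 4 of 6 and 5 of 6 samples.

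Fgfr1 (gene ID 14182, chr8:25518759-25575718, plus strand), a receptor tyrosine kinase typical of connective tissue cells, was by far the most abundant of these genes. The DMSO samples held 5361, 5411 and 5505 counts and the SD70 samples 5666, 6056 and 5809, or 5224, 5255 and 5279 against 5750, 6014 and 6391 normalized counts. The SD70 samples lay above the DMSO range, and the DMSO samples were very close to each other. The means of 5253 ± 27.69 and 6052 ± 322.1 normalized counts (SD of 3 samples each) gave a log2 fold change of 0.20 (SE 0.0497, 95% interval 0.10 to 0.30). This is the same estimate as for Fgf7, but with an error several times smaller on far more counts. In FPKM, Fgfr1 stood at 75.46, 75.49 and 75.32 under DMSO, against 81.08, 84.24 and 88.97 under SD70, above 93.2% and 93.9% of listed genes by its group means.

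Fgfr3 (gene ID 14184, chr5:33721724-33737068, plus strand), a receptor kinase best known for restraining the growth of cartilage, was lower with SD70. It had 124, 109 and 109 counts under DMSO against 62, 70 and 68 under SD70. The normalized counts of 120.8, 105.9 and 104.5 against 62.92, 69.51 and 74.81 did not overlap. Their means were 110.4 ± 9.052 and 69.08 ± 5.958 (SD of 3 samples each), with a log2 fold change of -0.68 (SE 0.144, 95% interval -0.97 to -0.39). For Fgfr3, SD70 replicate 3 was the SD70 sample nearest to the DMSO samples, in contrast to Fgf11, Fgf21, Fgfr1 and Fgfrl1, where it was the farthest from them.

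Fgfrl1 (gene ID 116701, chr5:108694229-108706950, plus strand) encodes a receptor that binds FGFs but lacks the kinase domain. Counts were 178, 154 and 167 under DMSO against 106, 102 and 80 under SD70, which scaled to 173.5, 149.6 and 160.2 against 107.6, 101.3 and 88.01 normalized counts. The SD70 samples were again all below the DMSO samples. The means were 161.1 ± 11.97 and 98.96 ± 9.985 (SD of 3 samples each), with a log2 fold change of -0.70 (SE 0.124, 95% interval -0.95 to -0.45). Fgfrl1 and Fgfr3 therefore differed from DMSO by nearly the same factor.

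Fgfr4 (gene ID 14186, chr13:55152818-55168759, plus strand), the receptor through which bile acid synthesis is controlled in liver, had 2 counts in SD70 replicate 3 and 0 in the 5 other samples. Among the kinase receptors listed, Fgfr1 made up 97.81 ± 0.153% of the summed FPKM under DMSO and 98.79 ± 0.0882% under SD70 (SD of 3 samples each). The ratio of Fgfr1 to Fgfr3 FPKM was 44.78 ± 3.08 under DMSO and 82.86 ± 4.63 under SD70. Thus the kinase receptor transcripts were nearly all Fgfr1 in both groups, and the remainder was smaller with SD70. Fgfr2 does not enter these shares.

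By mean FPKM the order with DMSO was Fgfr1, Fgf11, Fgfrl1, Fgfr3, Fgf21 and Fgf7, followed by Fgf2, Fgf13 and Fgfr4 near 0. The samples of Fgfr3 and Fgf21 overlapped in that order, and so did those of the last genes, whereas the other neighbours were separated. With SD70 the order was Fgfr1, Fgf21, Fgfrl1, Fgf11, Fgfr3 and Fgf7, with the samples of Fgf11 and Fgfr3 overlapping. Fgf21 thus moved up from the fifth place to the second, and Fgf11 moved down from the second to the fourth.

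The 5 genes whose pattern was closest to that of Fgf11 were Apln, Bmf, Fam71f2, Id2 and Adm. Closeness was the root mean square difference between log2 normalized counts of the 6 samples, each gene centred on its own mean, over 9622 genes with at least 100 normalized counts on average. It was 0.110 for Apln, 0.131 for Bmf, 0.190 for Fam71f2, 0.209 for Id2 and 0.210 for Adm. Apln encodes apelin and Adm adrenomedullin, both secreted peptides that act on blood vessels, Bmf encodes a pro-apoptotic protein of the BCL2 family, and Id2 encodes an inhibitor of basic helix-loop-helix factors. Apln stood at 811.6 ± 122.7 normalized counts with SD70 and at 3185 ± 87.67 with DMSO (SD of 3 samples each), and its log2 fold change was -1.97. The log2 fold changes of Bmf, Fam71f2, Id2 and Adm were -1.81, -2.10, -1.66 and -1.76. As for Fgf11, SD70 replicate 3 was the lowest sample in each of the 5. The measure picks genes with values like those of Fgf11 in each sample, between groups and within them. These values and the shared lowest sample are therefore a description.

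**Figure D3:**
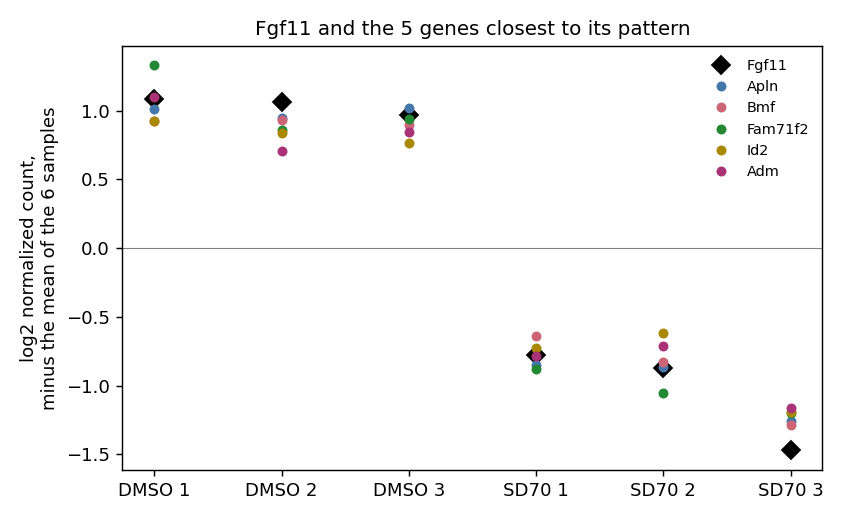
Log2 normalized counts of Fgf11 (black diamonds) and of Apln, Bmf, Fam71f2, Id2 and Adm (coloured points) in each of the 6 samples, each gene minus its own mean over the samples. All 6 genes lie above 0 in the DMSO samples and below 0 in the SD70 samples, and each is lowest in SD70 replicate 3.

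The genes that work with the FGF ligands and receptors were followed in 7 lists by role, without the 10 genes above. The lists hold 111 genes, of which 90 were listed and 64 tested. With SD70, 14 were higher and 26 lower at an adjusted p under 0.01 (edgeR's quasi-likelihood test, adjusted over all genes tested), and 24 did not pass. These are 21.9% higher and 40.6% lower, beside 25.8% and 24.2% of all genes tested. Only Glce, higher, and Dusp5, lower, also changed at least 2-fold, which is 3.12% beside 5.90% of all genes tested, and the median log2 fold change was -0.10. The groups did not overlap in 48 of the 64, or 75.0%, beside 64.4% of all genes.

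Of 17 further ligand genes, 7 were listed and Fgf1 alone had enough counts to be tested. Fgf1, the acidic FGF, which binds all FGF receptor kinases, rose to 66.05 ± 4.227 normalized counts with SD70, from 33.88 ± 1.613 with DMSO (SD of 3 samples each). Its log2 fold change was 0.96 (SE 0.185, adjusted p = 3.27e-05, edgeR), just under the fold threshold, and the lowest SD70 sample exceeded the highest DMSO sample. Without SD70 replicate 3 it was 1.00, which meets the threshold.

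Of the 18 co-receptors and proteoglycans, 8 were tested, of which 4 fell, 2 rose and 2 did not pass, beside 24.2% lower and 25.8% higher over all genes. Hspg2, which encodes the heparan sulphate proteoglycan perlecan, fell to 6048 ± 276.1 normalized counts from 9078 ± 470.2 (SD of 3 samples each, log2 fold change -0.59, adjusted p = 5.03e-12, edgeR). Flrt2, a membrane protein of a family that binds FGF receptors, fell (log2 fold change -0.76, adjusted p = 2.80e-10). The membrane proteoglycan Sdc3 likewise fell (log2 fold change -0.80, adjusted p = 5.20e-05). Sdc4, the most abundant of the list with a mean of 125.9 FPKM, did not pass (log2 fold change 0.11, adjusted p = 0.0526).

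Of 15 enzymes of heparan sulphate synthesis and trimming that were tested, 4 rose (26.7%), 5 fell (33.3%) and 6 did not pass, beside 25.8% and 24.2% of all genes. Glce, the epimerase that turns glucuronic into iduronic acid in the chain, rose to 4812 ± 524.2 normalized counts from 2156 ± 43.01 (SD of 3 samples each, log2 fold change 1.16, SE 0.0601, adjusted p = 1.24e-15, edgeR). B3galt6, which builds the linker between core protein and chain, rose (log2 fold change 0.88, adjusted p = 1.95e-08). Ndst2, a sulphotransferase, fell (log2 fold change -0.62, adjusted p = 9.37e-08). The list thus moved in both directions, and its median was -0.12.

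All 20 genes of the relay from receptor to ERK were tested, of which 5 rose, 6 fell and 9 did not pass (25.0% and 30.0% rose and fell, beside 25.8% and 24.2% of all genes). Sos2, an exchange factor that activates RAS, rose to 2374 ± 255.1 normalized counts from 1199 ± 51.95 (SD of 3 samples each, log2 fold change 0.98, adjusted p = 1.81e-13, edgeR). Mapk3, which encodes an ERK kinase, fell (log2 fold change -0.48, adjusted p = 1.68e-09).

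Of 15 feedback inhibitors and target genes tested, 10 fell (66.7%), 2 rose (13.3%) and 3 did not pass, beside 24.2% lower and 25.8% higher over all genes, with a median log2 fold change of -0.20. Many other growth factor receptors act on the same genes through ERK. Dusp5, a phosphatase that acts on nuclear ERK, fell to 97.12 ± 13.04 normalized counts from 196.6 ± 12.93 (SD of 3 samples each, log2 fold change -1.01, SE 0.121, adjusted p = 7.19e-09, edgeR). This is at the fold threshold, and without DMSO replicate 1 or SD70 replicate 3 it was -0.96 or -0.92. Etv1, an ETS transcription factor, fell from 3039 ± 140.4 to 1879 ± 138.8 (log2 fold change -0.69, adjusted p = 6.37e-13). Phlda1 rose (log2 fold change 0.73, adjusted p = 1.67e-13), and Fosl1, the most abundant of the list, did not pass (-0.09, adjusted p = 0.206).

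Among 14 sodium channel genes and other partners of the FGF homologous factors, which bind Fgf11 and Fgf13 proteins, 3 were tested, and their median log2 fold change was -0.44. Of 4 regulators of receptor splicing, 2 were tested and neither passed, Ptbp1 with a log2 fold change of just 0.08 (adjusted p = 0.154).

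**Figure D4:**
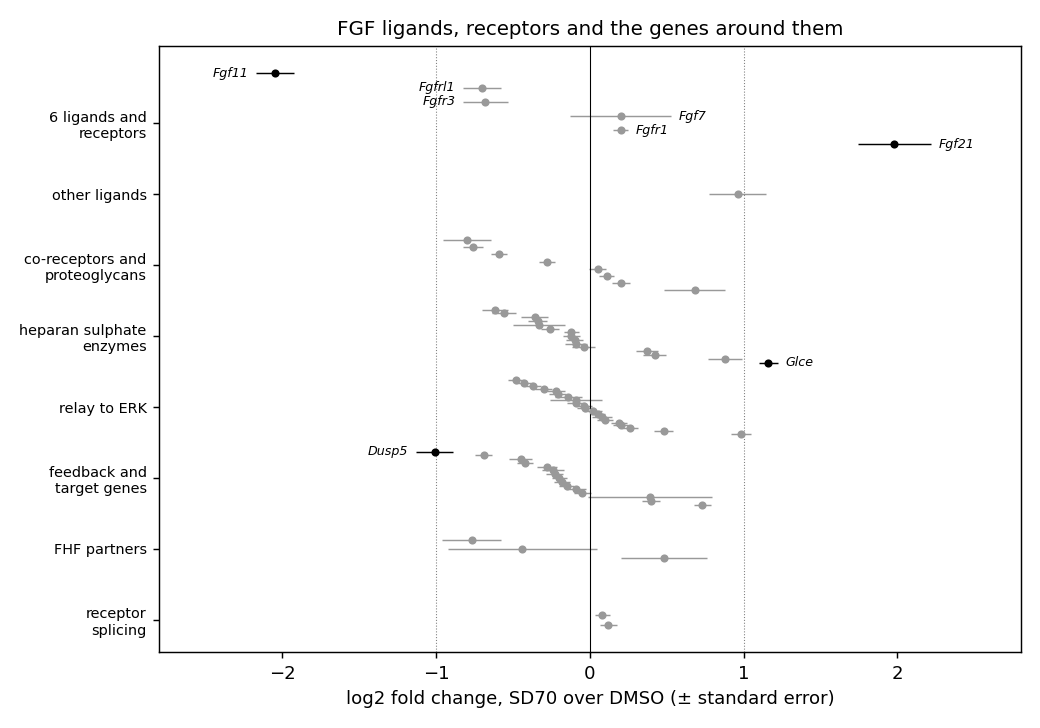
Log2 fold changes with SD70 over DMSO (horizontal axis, points with standard errors) of the 6 FGF ligands and receptors tested and of 64 genes in 7 lists by role, with black for genes that met both call thresholds and dotted lines at 2-fold. Fgf11 at -2.05 and Fgf21 at 1.98 lie farther from 0 than any gene of the lists, of which Glce at 1.16 and Dusp5 at -1.01 lie beyond the dotted lines.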

How the data were processed

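RNA-seq was analysed in 6 samples of Lewis cells, 3 with DMSO and 3 with SD70 for 24 hours, grouped by the sample labels. The authors sequenced oligo(dT)-selected RNA on the BGISEQ-500 platform and aligned reads with HISAT to GRCm38.p6. The submitters' processing notes name StringTie 1.3.3b and the build mm8, which differs from the methods, and the files hold no coordinates. The authors deposited an expected count per gene, not normalized and not whole in 8.84 to 9.28% of values. The other deposited column is not named as to unit and was read as FPKM, since counts divided by it give transcript lengths. Positions were taken from RefSeq GRCm38.p6, and the upstream sequences are RefSeq's, matched by symbol for 9 of the 10 genes.

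Expected counts were rounded, filtered with filterByExpr, normalized by TMM (factors 0.984 to 1.02) and tested by the quasi-likelihood F test of edgeR 4.0.16 (robust glmQLFit) under R 4.3.3, adjusted by Benjamini-Hochberg over 11552 genes. To give normalized counts, each library was scaled to the average effective library size. Totals per sample were 15276744 to 17060424. With 3 samples per group the precision is limited, and for low genes counting error limits it further. Within groups, samples differed by more than sampling noise (chi-square per gene 2.12 to 4.97). Deviations of same-numbered samples from their group means correlated (r = 0.19, 0.30 and 0.18 over 9623 genes, against -0.23 to 0.01 between different numbers). The samples may therefore be paired by number. The main fit used the group alone, so its errors, intervals and adjusted p leave out such pairing. A fit with the number as a block was one of the alternatives. The others were DESeq2 1.42.0, limma 3.58.1 on log2 FPKM with a pseudocount of 1 or 0.1, other scalings and filters, no fold minimum, and leaving out each sample.

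Named list genes were those called, at most 5 a list, filled up to 3 by the largest changes with an adjusted p under 0.01 and at least 50 normalized counts on average, and the most abundant. Some genes of these lists are not reported here. The members and lists were chosen with earlier results of these data known. The statistics were tested on simulated counts with a single spread setting for all genes, unpaired samples and changes larger than the fold threshold. Paired samples and smaller changes were not covered.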

Additional observations from a re-analysis of the deposited data

How the results depend on the processing

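Fgf11 stayed lower with SD70 in all 14 alternatives run for it, with a log2 fold change from -2.18 to -1.47, and from -2.18 to -1.88 when 1 sample was left out. The least negative value, -1.47, came from log2(FPKM + 1), where the pseudocount of 1 shrinks low levels, and the same scale gave 1.42 for Fgf21, -0.41 for Fgfr3 and 0.04 for Fgf7. Fgf11 and Fgf21 were the members that met both thresholds in every alternative that kept the fold minimum, and without it 5 members passed, both given as a description. The genes called over the whole table numbered 283 on log2(FPKM + 1), of which 202 were higher and 81 lower, beside 380 and 301, and 5767 without the fold minimum. Leaving out 1 sample gave 621 to 721. With the replicate block, 692 genes were called, 680 of them among the 681, and the block changed no call of a member or of a list gene. Of the list genes, 1 was called on log2(FPKM + 1), 40 without the fold minimum and 2 to 4 when 1 sample was left out. The 4 arose without SD70 replicate 2, where Sos2 and Scn11a joined Glce and Dusp5. Sos2 also took the place of Dusp5 without DMSO replicate 1, and Fgf1 did so without SD70 replicate 3. Among single list genes, 251 of 252 values kept their direction and their side of the adjusted p threshold of 0.01. Of 70 values of members other than Fgf11, 67 moved by no more than the SD between replicates, the exceptions being those of Fgf21, Fgfr3 and Fgf7 on log2(FPKM + 1). Leaving out 1 of 3 samples in a group can hardly move a value by more than that SD, so those values are no test of stability. Depth limits Fgf2, Fgf13 and Fgfr4, at 0 to 2 counts a sample, and Fgf7, at 12 to 15.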
